A study of Rattus norvegicus with 9 samples.

Results

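The 10 genes described here encode Kit and chains of the receptors through which mast cells and basophils sense growth factors, type 2 cytokines, alarmins, interferon gamma and interleukin-10. They were matched by gene symbol as Kit, Csf2rb, Csf2ra, Il3ra, Il1rl1, Il1rap, Il4r, Il2rg, Ifngr1 and Il10ra, and all 10 were found among 18006 genes with an expression value. The identifiers the files give them are 64030 for Kit, 171081 for Csf2rb, 652957 for Csf2ra, 246144 for Il3ra, 25556 for Il1rl1, 25466 for Il1rap, 25084 for Il4r, 140924 for Il2rg, 116465 for Ifngr1 and 117539 for Il10ra. RNA was sequenced from the rat basophilic leukemia line RBL-2H3, which serves as a model of mast cells, in 3 control (Ctrl), 3 IgE/DNP (DNP) and 3 PF samples. By the labels, DNP and PF samples were given anti-DNP IgE at 50 ng/mL during 12 h, followed by the antigen DNP-HSA at 100 ng/mL. PF samples had an additional pretreatment of 1 h with an agent called PF, whose identity and dose the labels do not state. The DNP samples were stimulated for 4 h. For PF replicates 1, 2 and 3, a field of the labels gives 4, 5 and 6 h of stimulation, whereas the protocol field gives 4 h for every sample. The Ctrl samples are called untreated in a field of the labels, but the protocol field lists IgE and antigen for them too, so whether they were sensitized is not settled.

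All samples come from a single tumour line, which the labels describe as a blood corpuscle of peripheral blood. RBL-2H3 cells are known to carry an activating mutation of Kit and to grow without added stem cell factor, which limits them as a model of Kit regulation in tissue mast cells. The labels number the replicates but do not say that they are separate cultures, so the p-values measure the spread between these samples, which may be technical. In bulk RNA, fewer cells that express a gene and less of its RNA per cell cannot be told apart.

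Cytokine receptors of these families signal as assemblies of several chains. A ligand-specific chain binds the cytokine and joins a second chain, which in several receptors is shared. Janus kinases (JAKs) bound to the chains activate STAT transcription factors. The common beta chain Csf2rb thus serves IL-3, GM-CSF and IL-5, and the common gamma chain Il2rg serves IL-4 and the IL-2 family. Kit differs in being a receptor tyrosine kinase for stem cell factor, the main survival factor of mast cells, and the IL-33 receptor Il1rl1 (ST2) signals through MyD88 and IRAK kinases after joining Il1rap.

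Expression values were read as FPKM, fragments relative to gene length and to the mapped total, because the heading of the values names no unit. Their sum over all genes ranged from 573023 to 630069 FPKM, highest in the PF samples. Since FPKM holds no read counts, depth and counting error are unknown here. Over all genes, each of the 9 samples correlated best with its own group, with r of 0.991 to 0.996 within groups and 0.973 to 0.989 between groups. Differences are log2 fold changes of (FPKM + 1), a scale on which changes of weakly expressed genes come out too small, and a gene was called where the limma adjusted p was at most 0.05.

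Promoter sequence from RefSeq (assembly GRCr8) was at hand for 9 of the 10 genes, as the 250 bases before the annotated start. Csf2rb was the gene without an entry. The windows of 5 genes whose expression differed between groups are printed here, because the genes moved in different comparisons. Il10ra, Il4r and Ifngr1 were lower in PF than in DNP samples, and Kit and Il3ra were lower in DNP than in Ctrl samples. Letters in capitals mark a match, on either strand, to any of 4 motifs searched. The motif searched for AP-1 was TGANTCA. For STAT factors it was TTCNNNGAA. GATA factors were represented by AGATAA, and NFAT factors by the core GGAAA of their sites. The windows run 5′ to 3′ on the gene's strand and lie at chr8:54474787-54475036 (minus strand) for Il10ra, chr1:189545525-189545774 (plus strand) for Il4r, chr1:16152660-16152909 (plus strand) for Ifngr1, chr14:32978813-32979062 (minus strand) for Kit and chr12:21437251-21437500 (minus strand) for Il3ra.
Il10ra: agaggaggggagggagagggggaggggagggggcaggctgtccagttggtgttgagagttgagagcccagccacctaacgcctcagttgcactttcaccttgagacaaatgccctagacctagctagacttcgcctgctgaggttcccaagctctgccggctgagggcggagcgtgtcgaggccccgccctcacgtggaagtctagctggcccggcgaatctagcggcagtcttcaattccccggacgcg
Il4r: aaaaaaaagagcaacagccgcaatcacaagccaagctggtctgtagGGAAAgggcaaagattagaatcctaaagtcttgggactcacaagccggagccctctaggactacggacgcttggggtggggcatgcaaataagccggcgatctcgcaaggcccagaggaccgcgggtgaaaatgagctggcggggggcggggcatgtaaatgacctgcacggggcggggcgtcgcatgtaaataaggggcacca
Ifngr1: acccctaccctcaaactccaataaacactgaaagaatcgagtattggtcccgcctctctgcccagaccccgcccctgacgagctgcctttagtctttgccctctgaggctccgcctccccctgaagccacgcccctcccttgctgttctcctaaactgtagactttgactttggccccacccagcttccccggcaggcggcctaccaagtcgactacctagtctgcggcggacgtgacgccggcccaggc
Kit: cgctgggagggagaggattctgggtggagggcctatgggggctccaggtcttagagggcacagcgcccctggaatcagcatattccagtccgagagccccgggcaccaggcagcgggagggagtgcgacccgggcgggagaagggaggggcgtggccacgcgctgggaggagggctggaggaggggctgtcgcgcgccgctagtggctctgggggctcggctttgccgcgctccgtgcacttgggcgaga
Il3ra: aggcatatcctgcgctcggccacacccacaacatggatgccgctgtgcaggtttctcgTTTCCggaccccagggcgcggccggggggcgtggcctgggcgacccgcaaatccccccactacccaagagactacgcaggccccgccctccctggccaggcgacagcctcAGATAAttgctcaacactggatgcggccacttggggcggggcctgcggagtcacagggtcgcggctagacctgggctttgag

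The windows of Il10ra, Ifngr1 and Kit held none of the 4 motifs. That of Il4r held GGAAA from 204 to 200 bases before the start. That of Il3ra held AGATAA from 82 to 77 bases before the start and, on the other strand, GGAAA (printed as TTTCC) from 192 to 188 bases before it. Among the windows of all 9 genes, TGANTCA and TTCNNNGAA were found in 0, AGATAA in 1 and GGAAA in 6 genes. Of 33360 promoter windows of the same length, 6.35% held TGANTCA, 7.68% TTCNNNGAA, 10.3% AGATAA and 56.9% GGAAA. These are matches of letters in a short window and say nothing of binding.

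On the FPKM scale the genes spanned a wide range. In Ctrl samples the highest was Csf2rb at 341 ± 1.75 FPKM (SD, n = 3), which put it above 98.6% of all genes with a value, and the lowest was Csf2ra at 1.203 ± 0.317 FPKM. Between them the order was Kit, Il1rl1, Il2rg, Ifngr1, Il4r, Il3ra, Il1rap and Il10ra, in which Il2rg, Ifngr1 and Il4r could not be separated because the ranges of neighbours overlapped. In DNP samples Il4r stood above Ifngr1, the order was otherwise the same, and no neighbours overlapped. In PF samples the order was Kit, Csf2rb, Il1rl1, Il2rg, Il3ra, Ifngr1, Il4r, Il1rap, Il10ra and Csf2ra, and the ranges of Csf2rb and Il1rl1 overlapped, as did those of Il3ra and Ifngr1 and of Il10ra and Csf2ra. The 10 genes together summed to between 933 and 969 FPKM in Ctrl, 794 and 824 FPKM in DNP and 628 and 670.4 FPKM in PF samples.

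**Figure D1:**
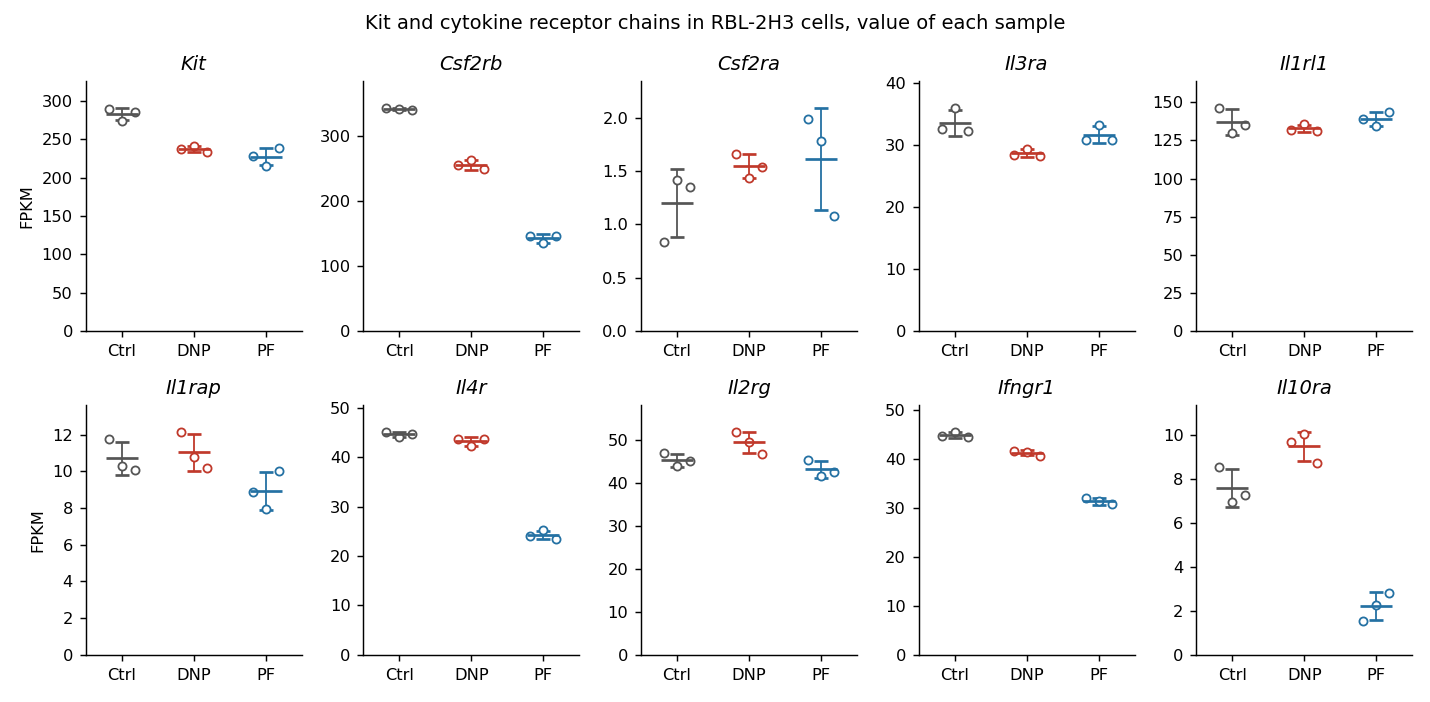
FPKM of each of the 10 genes in the 3 Ctrl, 3 DNP and 3 PF samples, with a separate axis from 0 for each gene. Circles are samples in replicate order, and bars give the mean and SD of each group. Csf2rb, Il4r, Ifngr1 and Il10ra have 3 groups that do not overlap, whereas the groups of Il1rl1 lie over each other.

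Kit was measured at 289, 274 and 286 FPKM in the Ctrl samples. The DNP samples had 238, 241 and 234 FPKM and the PF samples 229, 216 and 238 FPKM. All Ctrl samples were thus above all others, and the DNP and PF samples overlapped.

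The common beta chain Csf2rb was even between replicates. The Ctrl samples had 343, 341 and 339.6 FPKM, the DNP samples 255, 262.5 and 249 FPKM, and the PF samples 146, 135 and 147 FPKM, so that the groups followed each other downwards without overlap. Its ligand-specific partners differed in abundance. Il3ra, which completes the IL-3 receptor, had 32.5, 36.0 and 32.3 FPKM in Ctrl, 28.4, 29.4 and 28.2 FPKM in DNP and 30.9, 33.2 and 30.8 FPKM in PF samples. The DNP samples were the lowest for Il3ra, and Ctrl and PF samples overlapped. Csf2ra, the alpha chain of the GM-CSF receptor, had 0.84, 1.42 and 1.35 FPKM in Ctrl, 1.66, 1.44 and 1.54 FPKM in DNP and 1.99, 1.78 and 1.08 FPKM in PF samples. It was the only gene of the 10 with a sample below 1 FPKM, and its PF samples overlapped with both other groups. Il5ra, the IL-5 partner, was below 1 FPKM in every sample.

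Among the IL-1 family chains, the IL-33 receptor Il1rl1 had 146, 130.2 and 135 FPKM in Ctrl, 132, 136 and 131 FPKM in DNP and 139, 134 and 144 FPKM in PF samples. The 3 groups overlapped. A gene-level value does not separate the membrane form of ST2 from its soluble form. Its accessory chain Il1rap, shared with the IL-1 and IL-36 receptors, had 11.8, 10.3 and 10.1 FPKM in Ctrl, 12.2, 10.8 and 10.2 FPKM in DNP and 8.85, 7.94 and 10.0 FPKM in PF samples. All PF samples were below the others, the highest of them only just.

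The IL-4 receptor alpha chain Il4r had 45.1, 44.0 and 44.7 FPKM in Ctrl and 43.7, 42.2 and 43.6 FPKM in DNP samples, against 24.0, 25.2 and 23.5 FPKM in PF samples. The PF samples stood far below the other groups, which were close together. The common gamma chain Il2rg, with which Il4r forms the IL-4 receptor of blood cells, had 47.0, 44.0 and 45.2 FPKM in Ctrl, 52.0, 49.6 and 46.9 FPKM in DNP and 45.5, 41.6 and 42.6 FPKM in PF samples. Its PF samples overlapped with Ctrl and lay below all DNP samples. Il13ra1, the other partner of Il4r, and Il2rb, a partner of Il2rg, were below 1 FPKM in every sample.

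Ifngr1, the ligand-binding chain for interferon gamma, had 44.6, 45.5 and 44.4 FPKM in Ctrl, 41.6, 41.5 and 40.6 FPKM in DNP and 32.0, 31.3 and 30.7 FPKM in PF samples. The groups did not overlap, and the step from DNP to PF was the larger. Il10ra, the ligand-binding chain for the anti-inflammatory cytokine IL-10, had 8.54, 6.94 and 7.26 FPKM in Ctrl and 9.68, 10.0 and 8.73 FPKM in DNP samples. In the PF samples it had 1.56, 2.27 and 2.83 FPKM. These are the samples to which a label field gives 4, 5 and 6 h of stimulation, and with 1 sample at each time the part of the time could not be tested. Every DNP sample was above every Ctrl sample for Il10ra, and every PF sample was below them.

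DNP was compared with Ctrl to ask how these genes differed in cells given IgE and antigen. Whether the Ctrl samples were sensitized is not settled, so the parts of IgE and of antigen cannot be told apart. Kit and both IL-3 receptor chains were lower in DNP samples. The IL-4 and IL-33 receptor chains Il4r, Il2rg, Il1rl1 and Il1rap did not pass the test. Of the 10 genes, 5 were called, 1 higher and 4 lower, where 29.2% of the 10392 genes tested were called, 14.7% higher and 14.4% lower. The groups did not overlap for 7 of the 10, against 45.8% of all genes tested. Each of the 7 had p = 0.1 in the two-sided exact permutation test, the smallest value that 3 samples against 3 allow. Groups without overlap always give this value, so it adds nothing to the separation. The median log2 fold change was -0.05 over the 10 genes and -0.01 over all genes tested.

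Csf2rb fell by 25.2%, with a log2 fold change of -0.42 (SE 0.0315, limma adjusted p = 0.000107), and 696 of the 10392 genes had a larger absolute log2 fold change. Kit fell by 16.01%, or -0.25 on the log2 scale (SE 0.0330, limma adjusted p = 0.0012). Il3ra fell by 14.7%, or -0.22 (SE 0.0497, limma adjusted p = 0.0125). These 3 calls held at the threshold of 0.05 under each of 14 alternative fits, each sample left out in turn included. At a threshold of 0.01, Csf2rb and Kit were called and Il3ra was not.

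The other calls were less firm. Ifngr1 fell by 8.03%, or -0.12 on the log2 scale (limma adjusted p = 0.0311), and lost its call in each of the 6 fits without a sample, with adjusted p of 0.0515 to 0.103. Taking the replicate number as a block also ended it (limma adjusted p = 0.0577). Il10ra rose by 25.0%, or 0.29 (SE 0.0841, limma adjusted p = 0.0324). Its call was lost without Ctrl replicate 2 (adjusted p = 0.0997), Ctrl replicate 3 (0.0763), DNP replicate 1 (0.0891) or DNP replicate 2 (0.103), and the log2 fold change stayed between 0.24 and 0.37.

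The other 5 genes did not pass the test. Il2rg differed by 0.12 on the log2 scale with a 95% interval of 0.02 to 0.23 and a limma adjusted p of 0.083. Il4r differed by -0.05 (interval -0.13 to 0.03), although its DNP samples were all below its Ctrl samples. The interval ran from -0.15 to 0.06 for Il1rl1 and from -0.15 to 0.22 for Il1rap, and for both genes leaving out 1 sample turned the sign. For Csf2ra, near the lower limit of measurement, it ran from -0.06 to 0.50.

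PF was compared with DNP to ask how these genes differed in stimulated cells that had been pretreated with PF. The receptor chains for IL-10, IL-4 and interferon gamma and the common beta chain were lower in PF samples, whereas Kit and the IL-33 receptor Il1rl1 did not pass the test. Of the 10 genes, 7 were called, 1 higher and 6 lower, where 48.8% of the 10329 genes tested were called, 18.1% higher and 30.7% lower. The groups did not overlap for 7 of the 10, against 57.6% of all genes tested. The median log2 fold change was -0.24 over the 10 genes and -0.04 over all genes tested. Scaling matters for such small shifts. Of all genes, 1870 were called higher and 3172 lower. Scaling by median ratios gave 2527 higher and 2741 lower, and scaling to the mean deposited sum gave 869 higher and 4302 lower, with medians of all genes of 0.01 and -0.13.

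Il10ra fell by 76.6%, a log2 fold change of -1.72 (SE 0.135, 95% interval -2.02 to -1.41, limma adjusted p = 1.45e-05), and only 29 of the 10329 genes had a larger absolute change. Csf2rb fell by 44.2%, or -0.84 (SE 0.0404, limma adjusted p = 1.06e-06). Il4r fell by 43.8%, or -0.81 (SE 0.0410, limma adjusted p = 1.36e-06). Ifngr1 fell by 24.0%, or -0.39 (SE 0.0363, limma adjusted p = 4.45e-05). These 4 genes kept their calls under all 15 alternatives run, and with PF replicate 1 alone, the sample given 4 h in both label fields, their log2 fold changes were -2.03 for Il10ra, -0.80 for Csf2rb, -0.82 for Il4r and -0.35 for Ifngr1.

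Of the smaller differences, Il2rg fell by 12.7%, or -0.19 on the log2 scale (SE 0.0496, limma adjusted p = 0.0116), and lost its call with PF replicate 1 alone (adjusted p = 0.197). Il1rap fell by 19.1%, or -0.28 (SE 0.0896, limma adjusted p = 0.0292). The call on Il1rap was lost without DNP replicate 1 (adjusted p = 0.102), DNP replicate 2 (0.0535), PF replicate 1 (0.0708) or PF replicate 2 (0.0897). Il3ra moved the other way from its partner Csf2rb and rose by 10.4%, or 0.14 (SE 0.0437, limma adjusted p = 0.0284). Without DNP replicate 1, DNP replicate 3 or PF replicate 2 the call on Il3ra was lost (adjusted p = 0.0826, 0.0819 and 0.0852), and under scaling to the mean deposited sum its log2 fold change was 0.04.

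Kit, Il1rl1 and Csf2ra were not called. Kit differed by -0.06 on the log2 scale (95% interval -0.15 to 0.03, limma adjusted p = 0.219), and was called lower only under scaling to the mean deposited sum, at -0.16 (adjusted p = 0.0173). Il1rl1 differed by 0.06 (interval -0.02 to 0.14), was called higher under scaling by median ratios, at 0.11 (limma adjusted p = 0.0212), and turned to -0.04 under scaling to the mean deposited sum. The interval of Csf2ra, from -0.29 to 0.33, was too wide to show a direction.

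PF was also compared with Ctrl, which shares its samples with the other comparisons, to give the level reached relative to the Ctrl cells. Every called gene was lower in PF, 6 of the 10, where 57.7% of the 10361 genes tested were called, 23.1% higher and 34.6% lower. The groups did not overlap for these 6, against 64.8% of all genes tested. The median log2 fold change was -0.28 over the 10 genes and -0.05 over all genes tested.

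Csf2rb fell by 58.2%, or -1.25 on the log2 scale (SE 0.0407, limma adjusted p = 4.64e-07), and 154 of 10361 genes changed more. Il10ra fell by 70.7%, or -1.43 (SE 0.143, limma adjusted p = 6.21e-05), Il4r by 45.7%, or -0.85 (limma adjusted p = 1.96e-06), and Ifngr1 by 30.1%, or -0.50 (limma adjusted p = 1.63e-05). Kit fell by 19.6%, or -0.31 (SE 0.0453, limma adjusted p = 0.000473). These 5 calls held under all 15 alternatives run. Il1rap fell by 16.7%, or -0.24 (limma adjusted p = 0.0452), and lost its call in 8 alternatives, among them those without Ctrl replicate 1 (adjusted p = 0.144), Ctrl replicate 2 (0.0642), PF replicate 1 (0.1) or PF replicate 2 (0.14).

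Set side by side, the genes differed in where the step occurred. Kit stood at -0.25 for DNP against Ctrl and at -0.06 for PF against DNP. Il4r stood at -0.05 and -0.81, and Il10ra at 0.29 and -1.72. Csf2rb was called lower in both, at -0.42 and -0.84. Il2rg, Il3ra, Il1rl1 and Csf2ra were not called between PF and Ctrl, with 95% intervals of -0.18 to 0.04, -0.21 to 0.04, -0.10 to 0.13 and -0.13 to 0.61. Il3ra and Il2rg were called lower there under scaling to the mean deposited sum, at -0.16 (limma adjusted p = 0.0252) and -0.15 (0.0417), and Csf2ra was called higher without PF replicate 3, at 0.40 (0.0452).

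**Figure D2:**
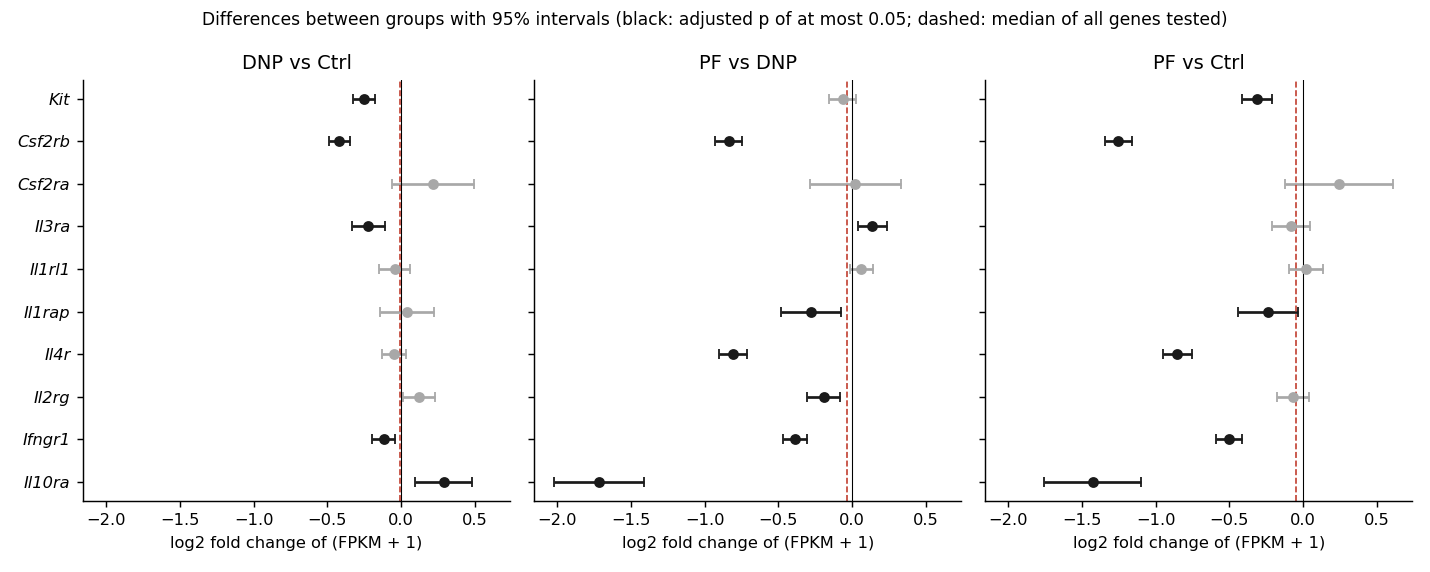
Log2 fold change of (FPKM + 1) of the 10 genes in each comparison, with 95% intervals from limma, 3 samples against 3. Black marks an adjusted p of at most 0.05, grey a larger one, and the dashed line is the median of all genes tested. Il10ra at -1.72 and Csf2rb at -0.84 lie farthest left for PF against DNP, and Kit differs from 0 when DNP or PF is set against Ctrl.

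Because chains of a receptor must meet to signal, 7 ratios of FPKM values were taken within each sample. A ratio removes any scaling of the whole sample. These are ratios of RNA and do not give the ratio of the chains as proteins, which were not measured. Kit over Csf2rb sets genes of different receptors side by side. In 20 of the 21 comparisons of a ratio between groups the samples did not overlap. Each of these 20 reached the smallest possible two-sided exact permutation p of 0.1. The exception was Il1rl1 over Il1rap between DNP and Ctrl (exact permutation p = 0.5). How often ratios of other gene pairs separate was not counted, so the 20 cannot be set against a background. Single genes separated often too, 45.8% of them for DNP against Ctrl, 57.6% for PF against DNP and 64.8% for PF against Ctrl. The 21 comparisons are also not independent, because they share samples and Csf2rb enters several of the ratios.

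Csf2rb exceeded its IL-3 partner Il3ra by a factor of 10.2 ± 0.610 (SD, n = 3) in Ctrl, 8.91 ± 0.0949 in DNP and 4.52 ± 0.393 in PF samples. Its excess over Csf2ra was 300.1 ± 94.0 in Ctrl, 166 ± 14.9 in DNP and 95.03 ± 35.5 in PF samples, with wide errors because Csf2ra was low. The RNA of the common beta chain thus exceeded that of either alpha chain in each group, least so in the PF samples.

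Il4r over Il2rg was 0.984 ± 0.0211 in Ctrl, 0.873 ± 0.0482 in DNP and 0.562 ± 0.0402 in PF samples. The RNA of the alpha chain thus went from near that of the gamma chain to well below it. Ifngr2, the signalling chain of the interferon gamma receptor, stood to Ifngr1 as 0.937 ± 0.0488 in Ctrl, 1.14 ± 0.0384 in DNP and 0.731 ± 0.0563 in PF samples. Il10rb, the shared second chain of the IL-10 receptor, stood to Il10ra as 0.675 ± 0.0290 in Ctrl, 0.551 ± 0.0523 in DNP and 1.78 ± 0.456 in PF samples. The chain with the higher FPKM was thus Il10ra in Ctrl and DNP but Il10rb in PF samples, and Ifngr2 exceeded Ifngr1 in DNP samples and was below it in Ctrl and PF samples. Il1rl1 over Il1rap was 12.8 ± 0.484, 12.1 ± 1.09 and 15.7 ± 1.28 in the 3 groups, and Kit over Csf2rb was 0.829 ± 0.0230, 0.931 ± 0.0113 and 1.60 ± 0.0276.

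**Figure D3:**
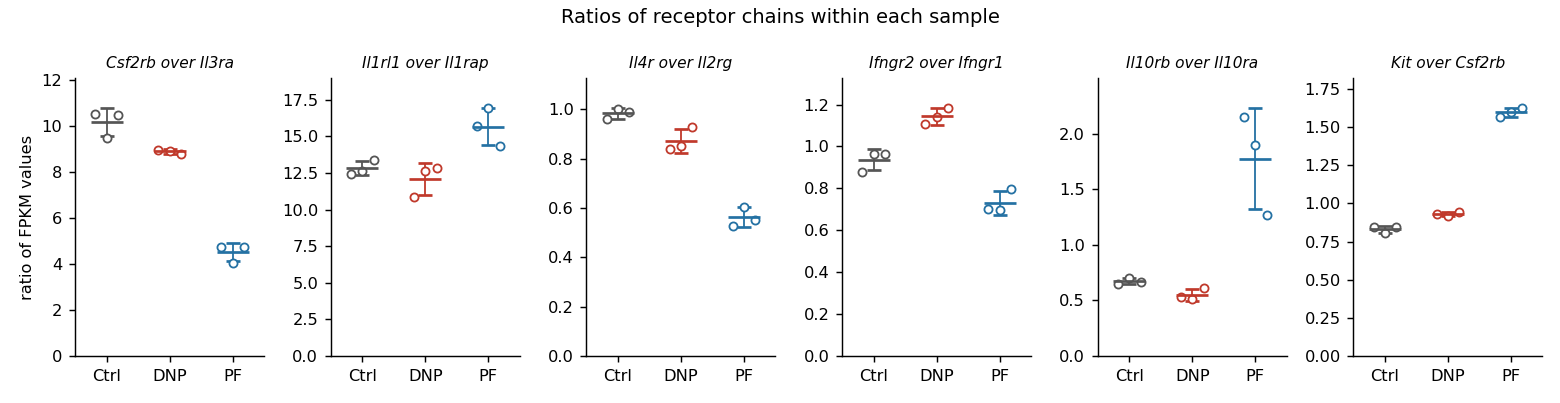
Ratio of the FPKM values of 2 receptor chains in each sample, for 6 of the 7 ratios, with axes from 0. Circles are samples in replicate order and bars give mean and SD, n = 3 per group. Csf2rb over Il3ra falls to 4.52 in PF samples, and Il10rb over Il10ra lies above 1 only there.

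Of 17 further chains that can pair with these receptors or belong to the same receptor family, 9 were expressed enough to be tested. Between DNP and Ctrl, 1 was called higher and 0 lower. Between PF and DNP, 0 were called higher and 7 lower, with a median log2 fold change of -0.41, and PF against Ctrl gave the same counts. Of all genes tested, 14.7% were called higher in DNP against Ctrl. Called lower were 30.7% in PF against DNP and 34.6% in PF against Ctrl. Ifngr2 had 39.3, 43.9 and 42.8 FPKM in Ctrl, 46.1, 47.3 and 48.1 FPKM in DNP and 22.4, 21.8 and 24.4 FPKM in PF samples. It was the chain that rose in DNP against Ctrl, at 0.16 on the log2 scale (limma adjusted p = 0.0323), and it fell in PF against DNP, at -1.01 (limma adjusted p = 1.05e-06). Il10rb was not called in DNP against Ctrl, at 0.02, and fell in PF against DNP at -0.39 (limma adjusted p = 0.00551).

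The IL-18 receptor chains, relatives of Il1rl1 and Il1rap, were both lower in PF than in DNP samples, Il18rap at -1.03 (limma adjusted p = 3.62e-06) and Il18r1 at -0.58 (limma adjusted p = 7.86e-06). Il18rap stood at 17.3, 17.4 and 16.6 FPKM in DNP and 7.70, 7.31 and 8.56 FPKM in PF samples, without overlap. Among partners of Il2rg, the IL-9 receptor chain Il9r (-0.32, limma adjusted p = 0.00143), Il15ra (-0.41, adjusted p = 0.00942) and Il2ra (-0.52, adjusted p = 0.0136) fell as well. Il2ra was near the lower limit of measurement, at 2.17, 1.48 and 1.39 FPKM in DNP and 0.64, 1.10 and 0.86 FPKM in PF samples. Its DNP samples alone were enough to pass the filter of 1 FPKM. The TSLP receptor chain Crlf2, with means of 30.3 FPKM in Ctrl, 26.7 FPKM in DNP and 28.2 FPKM in PF samples, was not called in any comparison, and neither was Sigirr.

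Of 29 other cytokine and growth factor receptor chains, 18 were below 1 FPKM in every sample and 7 were tested. Epor, the erythropoietin receptor, had 14.5, 14.0 and 12.2 FPKM in Ctrl against 8.80, 7.40 and 7.62 FPKM in DNP samples and 7.87, 8.04 and 7.42 FPKM in PF samples. It fell by 0.70 on the log2 scale in DNP against Ctrl (limma adjusted p = 0.000791) and differed by -0.02 between PF and DNP, where it was not called. Of the chains for type I and type III interferons, Ifnar1 fell at both steps (-0.27 and -0.41, limma adjusted p = 0.0187 and 0.00128). Ifnar2 (-0.60, limma adjusted p = 0.00203) and Ifnlr1 (-0.68, limma adjusted p = 0.000605) fell between PF and DNP.

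Few ligands of the receptors had FPKM values high enough to be tested. Of 17 listed, 12 had a value, 8 of these were below 1 FPKM in every sample, and 3 were tested, namely Il3, Il4 and Il13. Kitlg, which encodes stem cell factor, reached at most 0.01 FPKM and Il33 at most 0.03 FPKM. The mRNA of GM-CSF, Csf2, reached 1.32, 0.00 and 0.33 FPKM in DNP and 0.16 FPKM in each of the PF samples and was listed at 0.00 in all Ctrl samples. Il3 had 4.07, 3.96 and 4.5 FPKM in Ctrl, 17.7, 21.1 and 21.5 FPKM in DNP and 6.63, 7.94 and 7.42 FPKM in PF samples. The ligand of Csf2rb and Il3ra thus rose by 2.02 on the log2 scale in DNP against Ctrl (limma adjusted p = 2.47e-06), where both its receptor chains fell. In PF against DNP it fell by 1.34 (limma adjusted p = 4.47e-06). Il4 had 2.47, 2.26 and 2.27 FPKM in Ctrl, 11.8, 12.7 and 12.5 FPKM in DNP and 2.55, 3.71 and 4.22 FPKM in PF samples. It rose by 2.00 in DNP against Ctrl (limma adjusted p = 9.82e-07) and fell by 1.59 in PF against DNP (limma adjusted p = 1.68e-05). Il13 rose by 1.40 and fell by 1.07 in the same comparisons (limma adjusted p = 5.9e-05 and 2.23e-05). In PF against Ctrl all 3 were still higher, Il3 by 0.68, Il4 by 0.41 and Il13 by 0.33 (limma adjusted p = 0.000152, 0.0283 and 0.00727).

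Of 36 genes that act directly below these receptors, 33 were tested. DNP against Ctrl gave 6 higher and 9 lower, PF against DNP 2 higher and 18 lower, and PF against Ctrl 3 higher and 20 lower. Over all genes tested, 14.7% were called higher and 14.4% lower in DNP against Ctrl. The shares were 18.1% and 30.7% in PF against DNP, and 23.1% and 34.6% in PF against Ctrl. The genes of this list with the lowest log2 fold changes in PF against DNP were Cish, Socs3, Socs1 and Sh2b3, of which the first 3 are feedback inhibitors that cytokine receptors induce through STATs. Cish had 23.9, 20.5 and 21.7 FPKM in DNP and 4.16, 4.11 and 4.21 FPKM in PF samples, -2.16 on the log2 scale (limma adjusted p = 1.48e-07). Socs3 had 9.12, 9.37 and 9.81 FPKM in Ctrl, 18.1, 15.5 and 19.5 FPKM in DNP and 4.15, 3.63 and 3.04 FPKM in PF samples. It rose by 0.83 in DNP against Ctrl (limma adjusted p = 0.000312) and fell by 2.02 in PF against DNP (limma adjusted p = 1.63e-06). Socs1 (-1.57, limma adjusted p = 2.45e-05) and Sh2b3 (-1.09, limma adjusted p = 6.88e-07), an adaptor that restrains Kit and JAK2, fell too, as did a further inhibitor of the SOCS family, Socs2 (-0.87, limma adjusted p = 4.7e-06).

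Among the kinases and STATs themselves, the differences were smaller. Jak2, the kinase bound by Csf2rb, fell by 0.56 in PF against DNP (limma adjusted p = 8.53e-05), and Jak1 (-0.03) and Jak3 (0.05), which serve Il4r and Il2rg, were not called there. Jak3 rose by 0.19 in DNP against Ctrl and by 0.24 in PF against Ctrl (limma adjusted p = 0.0215 and 0.00934). Tyk2 fell by 0.28 in DNP against Ctrl and by 0.40 in PF against DNP (limma adjusted p = 0.0176 and 0.00278). Stat6, the STAT of Il4r, fell by 0.39 in DNP against Ctrl (limma adjusted p = 0.00111) and by 0.41 in PF against DNP (limma adjusted p = 0.000175), whereas Stat5a and Stat5b, used by the IL-3 receptor and Kit, were called in none of the 3 comparisons. Of the IL-33 pathway, Myd88 fell by 0.30 in each of the first 2 comparisons (limma adjusted p = 0.00447 and 0.000275) and Traf6 fell by 0.85 in PF against DNP (limma adjusted p = 6.47e-05). Other genes of that pathway rose, Irak1 by 0.15 in DNP against Ctrl (limma adjusted p = 0.0297) and Tollip, an inhibitor, by 0.14 in PF against DNP (limma adjusted p = 0.0401). In DNP against Ctrl, Tollip fell by 0.24 (limma adjusted p = 0.00588). Irak3 (-0.55, limma adjusted p = 0.00119) and Irak4 (-0.17, limma adjusted p = 0.048) fell in PF against DNP, where Irak1 was not called (-0.02). The kinases, STATs and adaptors of these sentences were named after their values were seen.

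**Figure D4:**
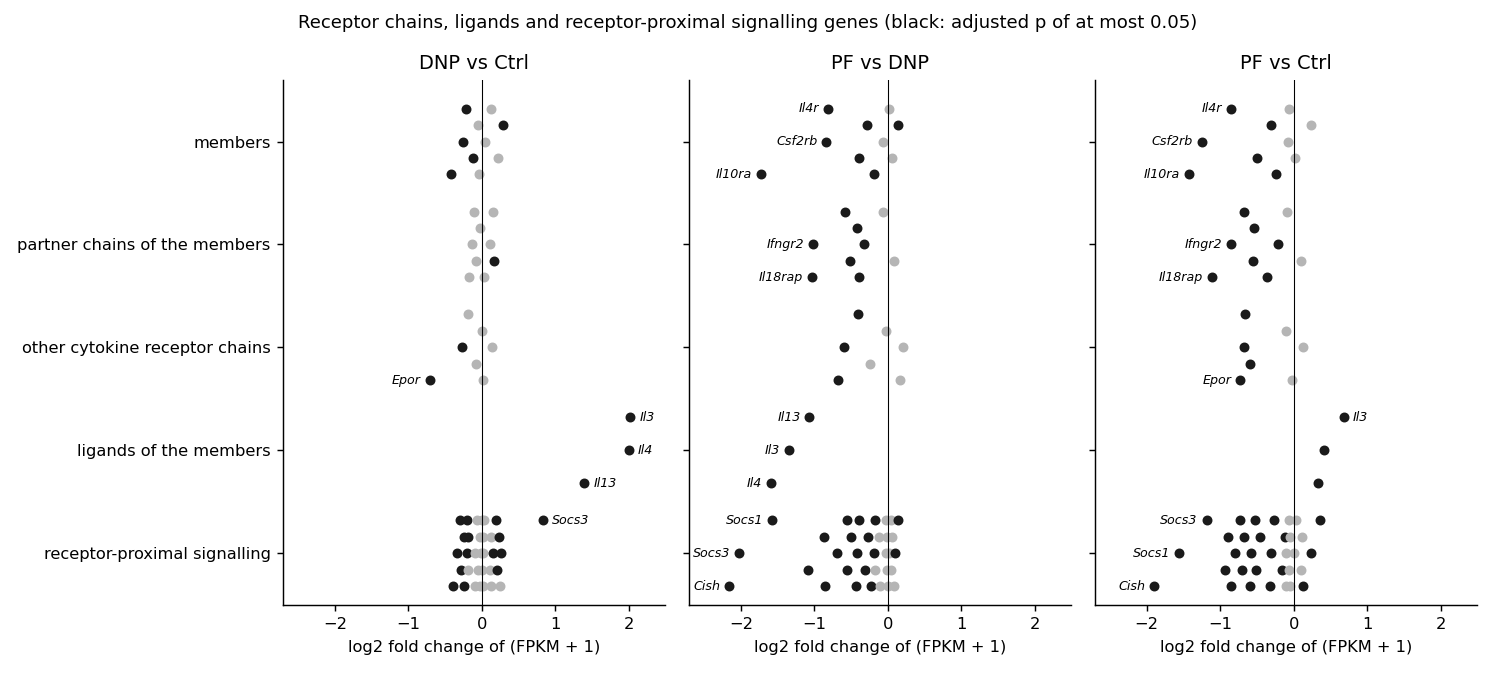
Log2 fold change of (FPKM + 1) of each tested gene of 5 lists, 3 samples against 3 in each comparison. Black marks a limma adjusted p of at most 0.05 and grey a larger one, and the vertical spread within a list only separates points. The ligands Il3, Il4 and Il13 lie right of 0 for DNP against Ctrl and left of 0 for PF against DNP, where Cish at -2.16 and Socs3 at -2.02 lie farthest left.

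The label of the cells was compared with marker genes. Of 11 mast cell and basophil markers, 10 had a value and all 10 were at 1 FPKM or more in every sample. Tpsab1 is listed without a value. Summed, they ranged from 5211 to 5342 FPKM in Ctrl, 5138 to 5245 FPKM in DNP and 5301 to 5552 FPKM in PF samples. Of these, 2 were called higher and 4 lower in DNP against Ctrl. PF against DNP gave 3 and 3, and PF against Ctrl 4 and 4. The markers thus moved in both directions in each comparison, where 29.2%, 48.8% and 57.7% of all genes tested were called. Gata2, a transcription factor of the lineage, fell by 0.33 in PF against DNP (limma adjusted p = 2.43e-05), and Mitf rose by 0.54 in DNP against Ctrl (limma adjusted p = 0.000569) and fell by 0.25 in PF against DNP (limma adjusted p = 0.00314). The proteases Mcpt8 (-0.87, limma adjusted p = 0.000268) and Mcpt2 (-0.64, limma adjusted p = 1.88e-05) fell in DNP against Ctrl. The 3 markers called higher in PF against DNP were Fcer1g (0.34, limma adjusted p = 4.34e-05), Fcer1a (0.18, adjusted p = 0.00416) and Mcpt2 (0.19, adjusted p = 0.0188). Called lower there, besides Gata2 and Mitf, was Hdc (-0.14, limma adjusted p = 0.00859).

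Of 19 markers of other cell types, 13 were below 1 FPKM in every sample, among them Cd4, Csf1r, Col1a1 and Epcam, and 3 were at 1 FPKM or more in all samples, namely Itgax, Pecam1 and Cd3e. The list summed to between 135 and 136 FPKM in Ctrl, 133 and 136 FPKM in DNP and 112 and 118 FPKM in PF samples. Itgax (-0.21, limma adjusted p = 0.000678) and Pecam1 (-0.33, limma adjusted p = 0.000801) fell in PF against DNP. In PF against Ctrl, Cd3e rose by 0.25 (limma adjusted p = 0.0459) and Cd68, with at most 1.65 FPKM in any sample, fell by 0.41 (limma adjusted p = 0.0358). The part of these markers in the receptor results was not tested.

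The 10 genes were also compared by their pattern over the 9 samples. These points share 3 groups and 1 cell line, so the correlations of log2(FPKM + 1) are given as a description. Of 45 gene pairs, 4 had Pearson r above 0.9, which were Csf2rb with Ifngr1 (0.989), Il4r with Ifngr1 (0.978), Il4r with Il10ra (0.954) and Csf2rb with Il4r (0.951). Kit correlated best with Csf2rb, at 0.844, and 17 pairs were below 0, the lowest being Kit with Csf2ra at -0.681. Il1rl1 and Il1rap, chains of the same receptor, had r of 0.0966, and Csf2rb and Il3ra had r of 0.154.

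Among 2305 other genes whose group means ranged over at least 0.5 on the log2 scale, those most like Kit were Dhx58 (r = 0.973), Pde2a (0.969), Ypel2 (0.968), Urb2 (0.964) and Cxcr4 (0.964). Cxcr4 had means of 90.7 ± 4.16 FPKM in Ctrl, 35.9 ± 1.13 FPKM in DNP and 31.9 ± 1.61 FPKM in PF samples (SD, n = 3). The group means of Kit stood in the same order. They ranged over 0.31 on the log2 scale, below the 0.5 asked of the other genes. Each gene named here was therefore bound to range wider than Kit. Most like Il10ra, whose group means ranged widest of the 10 genes, were Mcl1 (r = 0.991), Trim21 (0.991), Slc30a1 (0.990), Ncoa5 (0.990) and Sh2b3 (0.990). Mcl1, a survival factor of the BCL2 family, had means of 170.3 ± 8.47 FPKM in Ctrl, 188 ± 4.16 FPKM in DNP and 102 ± 6.64 FPKM in PF samples.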

How the data were processed

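RNA-seq values of 9 RBL-2H3 samples (3 Ctrl, 3 DNP and 3 PF by the labels) were analysed. Per the paper's methods and the submitters' processing notes, the authors filtered reads with SOAPnuke, mapped them with HISAT2 2.0.4, aligned them with Bowtie2 2.2.5 for quantification by RSEM 1.2.12, with rn6 as the genome build named, and used DESeq2 for their tests. The labels name Illumina library protocols, the paper a BGISEQ-500 sequencer. The authors deposited a single value for each gene in each sample, normalized for gene length and depth, which was read as FPKM. Of 38490 gene rows, 20484 held no value.

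Samples were joined by gene identifier. Each comparison was fitted on its own 6 samples with limma 3.58.1 in R 4.3.3 (lmFit, then eBayes with a trend). Values entered as log2(FPKM + 1), 3 or more of the 6 samples had to reach 1 FPKM, and Benjamini-Hochberg adjustment ran over all genes tested, with a threshold of 0.05. The fit was checked on simulated data. Single genes and ratios had a two-sided exact permutation test. Alternatives were another pseudocount (0.1), other filters, scaling by median ratios or to the mean deposited sum, all 9 samples in a joint fit, the replicate block, no trend, each sample left out, PF replicate 1 alone and a threshold of 0.01.

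The 10 genes and the lists of partner chains, ligands, signalling genes and markers were chosen with earlier results of these data known. Named are the 10 genes, the partners of their receptors, up to 4 genes per list with the largest absolute log2 fold change among those called, and the 5 genes most alike in pattern to Kit and to the gene of the widest range. Others were named after their values were seen. The labels do not say that replicate numbers mark a shared culture or day, so no block was used in the main fits. Only in PF vs Ctrl did all 6 samples correlate best with their own number, at r of 0.0830 to 0.189. That comparison was also fitted without a block.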

Additional observations from a re-analysis of the deposited data

How the results depend on the processing

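Of the 10 genes, 5, 7 and 6 were called in DNP vs Ctrl, PF vs DNP and PF vs Ctrl. Under every alternative fit, 3, 4 and 5 of them kept their call at the threshold of 0.05, and none of the called changed sign. How many of all genes kept their call under every alternative was not counted, so these counts cannot be set against genes in general. At a threshold of 0.01, 2 of the 10 genes and 1469 of all genes were called in DNP vs Ctrl, and 4 of the 10 and 3445 of all genes in PF vs DNP. With PF replicate 1 alone, 4 of the 10 and 3633 of all genes were called in PF vs DNP. Leaving out 1 sample gave 3 to 4 called genes in DNP vs Ctrl, 5 to 7 in PF vs DNP and 5 to 7 in PF vs Ctrl, with 2099 to 2736, 4138 to 4796 and 5147 to 5541 of all genes called.

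Among genes not called, signs turned as follows. In DNP vs Ctrl the log2 fold change was 0.00359 for Il1rl1 without Ctrl replicate 1 and -0.0281 for Il1rap without DNP replicate 1, over ranges of -0.0802 to 0.00359 and -0.0281 to 0.101 with 1 sample left out. In PF vs DNP, Csf2ra was at -0.0379 and Il1rl1 at -0.0355 under scaling to the mean deposited sum, and Csf2ra at -0.00752, -0.0819 and -0.0293 without DNP replicate 2, PF replicate 1 and PF replicate 2 (range up to 0.180). In PF vs Ctrl, Il1rl1 was at -0.0604 under that scaling and at -0.0174 and -0.00521 without Ctrl replicate 2 and PF replicate 3 (range up to 0.0664), and Il2rg was at 0.00423 with PF replicate 1 alone. The cause was not tested.

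With the replicate number as a block, 4, 7 and 6 of the 10 genes and 2697, 4675 and 6009 of all genes were called, against 3031, 5042 and 5975 without it. Deviations of same-numbered samples correlated at -0.0739 to 0.0514 in DNP vs Ctrl, -0.0822 to 0.00049 in PF vs DNP and 0.0830 to 0.189 in PF vs Ctrl, where 6 of 6 samples correlated best with their own number.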
